A study of Mus musculus with 6 samples.

Results

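The IL-1 family genes described here are 10 rows of the deposited colon expression table, chosen by gene symbol from its 18477 genes: the agonists Il1a, Il1b, Il33 and Il18, the antagonist Il1rn, the decoy receptor Il1r2, and the signalling receptors Il1r1, Il1rap, Il1rl1 and Il18r1. All 10 passed the filter on low counts, which left 14579 genes for testing. RNA was sequenced from the colon of male C57BL/6 mice of 6 to 8 weeks. All mice drank water with 2% dextran sulfate sodium (DSS), which damages the gut lining, from day 8 to day 14. For the 14 days, 3 mice received PBS by daily gavage (DSS group) and 3 received the gut bacterium B. vulgatus (DSS+BV group), and each mouse gave 1 library. Untreated mice were not analysed here, so no value below shows the level in an uninjured colon.

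Cytokines of this family bind a receptor chain of their own, which then recruits a second chain, and the paired chains signal through Myd88 to NF-kB. IL-1 alpha and IL-1 beta (Il1a, Il1b) act on the receptor of Il1r1 and Il1rap, the antagonist encoded by Il1rn occupies that receptor without signalling, and the receptor encoded by Il1r2 binds IL-1 but cannot signal. IL-33 acts on ST2 (Il1rl1) with the same Il1rap chain, and IL-18 acts on Il18r1 with Il18rap. In the colon, IL-1 beta comes mainly from myeloid cells, IL-18 from epithelium, and IL-33 from stromal, endothelial and epithelial cells. IL-1 beta and IL-18 are made as precursors that need cleavage, so a transcript level says nothing of the active protein.

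The receptor genes other than Il1rap lie side by side on chromosome 1 (GRCm38.p6), all on the plus strand. Il1r2 spans chr1:40084692-40125230, Il1r1 spans chr1:40222480-40316201, Il1rl1 spans chr1:40404864-40465418 and Il18r1 spans chr1:40465552-40500854. On chromosome 2 are Il1a (chr2:129299609-129310186, minus strand), Il1b (chr2:129364569-129371164, minus strand) and Il1rn (chr2:24336860-24351491, plus strand). Il18 lies at chr9:50554700-50581841, Il1rap at chr16:26581509-26730128 and Il33 at chr19:29925113-29960718, all on the plus strand. Each value counts a whole gene, so the soluble and membrane forms of ST2, and the secreted and intracellular forms of the antagonist, were not separated. Annotated antisense genes overlap exons of Il1a, Il1b and Il1rap, and without a stated strand setting their reads cannot be told apart from those of the members.

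The 250 bases before the start sites of Il1b and Il33 (RefSeq, GRCm38.p6) are shown because these agonists were lower in every DSS+BV mouse, as described below. Il1b has 1 start in the table used, at the end of chr2:129371140-129371389 on the minus strand. Il33 has 2, after chr19:29924863-29925112 and after chr19:29945540-29945789, the latter inside the gene's span. Capitals mark matches to a C/EBP-like pattern, TTNNGNAA, or to a TATA box, TATAAA, on either strand.
Il1b: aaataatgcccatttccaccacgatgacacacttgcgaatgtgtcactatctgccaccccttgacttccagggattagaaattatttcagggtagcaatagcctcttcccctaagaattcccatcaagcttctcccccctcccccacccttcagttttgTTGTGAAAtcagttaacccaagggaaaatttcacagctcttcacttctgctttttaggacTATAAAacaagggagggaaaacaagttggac
Il33 start 1: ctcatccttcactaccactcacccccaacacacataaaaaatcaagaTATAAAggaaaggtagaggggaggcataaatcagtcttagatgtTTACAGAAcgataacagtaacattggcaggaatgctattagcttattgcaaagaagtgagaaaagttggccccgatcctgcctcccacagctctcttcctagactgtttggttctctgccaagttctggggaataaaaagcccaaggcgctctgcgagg
Il33 start 2: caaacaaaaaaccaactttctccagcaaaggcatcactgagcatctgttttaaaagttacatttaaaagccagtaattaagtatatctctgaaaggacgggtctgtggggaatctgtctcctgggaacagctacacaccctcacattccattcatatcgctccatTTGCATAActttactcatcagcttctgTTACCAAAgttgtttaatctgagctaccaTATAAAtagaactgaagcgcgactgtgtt
Counted from the start, the TATA letters lay at -31 to -26 in Il1b, at -29 to -24 at the Il33 start inside the gene, and at -203 to -198 at the upstream Il33 start. TATAAA was held by 12.4% and TTNNGNAA by 36.8% of 32851 promoter windows of this length, so the C/EBP-like letters in particular are common. Neither gene had a match here to the NF-kB consensus (3.9% of windows) or to the AP-1-like TGANTCA (6.75%), which were also searched on both strands. These matches describe letters in a window and no binding was measured.

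Before the members, 3 features of the libraries need naming. Totals lay between 15293276 and 17254343 expected counts, and levels are in CPM, a share of the library total after TMM scaling. DSS+BV 3 held none of the distal colon gene Hoxb13 (0 CPM, which allows up to 3 counts), against 36.4 to 247.7 CPM in the other 5 libraries. The sum of 4 distal colon genes (Hoxb13, Hoxd13, Hoxa13 and Hoxd12) was 0.253 CPM in DSS+BV 3. In the other 5 libraries it was 58.5 to 328.1 CPM. Summed B cell marker genes lay at 14.4 CPM or less in DSS 2, DSS+BV 2 and DSS+BV 3, and at 143.7 CPM or more in DSS 1, DSS 3 and DSS+BV 1. Epithelial, smooth muscle and stromal genes were present in every library, as the label colon requires, while squamous genes summed to at most 3.71 CPM.

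No member passed the edgeR quasi-likelihood test at an adjusted p-value under 0.05 with an absolute log2 fold change over 1, in either direction. Of all tested genes, 0.0892% passed it in the lower direction and 0% in the higher. All 10 members had a fitted log2 fold change below 0 (DSS+BV against DSS), with a median of -0.82, against -0.01 over the 14579 tested genes. At an unadjusted p-value under 0.05, 5 of the 10 were lower (background 9.12%) and 0 were higher (background 3.4%). In 4 of the 10, every DSS+BV mouse lay below every DSS mouse (background 11.3%), and in 0 every one lay above (background 6.37%). DESeq2 called 2 members lower, Il1r2 and Il33 (background 1.73% of 16155 genes), and 0 higher (background 0.279%). The members with the clearest separation were thus the decoy receptor, IL-33, IL-1 beta and Il1r1. As the members were chosen with earlier results of these data known, these shares are not a test against the background. With 1 library left out, the number of members below an unadjusted p of 0.05 ran from 3 to 6 (background 4.09% to 11%) and the number without overlap from 4 to 7 (background 12.6% to 21.3%). DSS+BV 3, the library without Hoxb13, had the lowest level of all libraries for Il1a, Il1b, Il1rn, Il1r1, Il1r2, Il1rap, Il33 and Il18. It was not the lowest for Il1rl1 or Il18r1. Any link of these levels to position along the colon was not tested. Bulk tissue cannot tell fewer cells of a type from less RNA per cell.

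**Figure D1:**
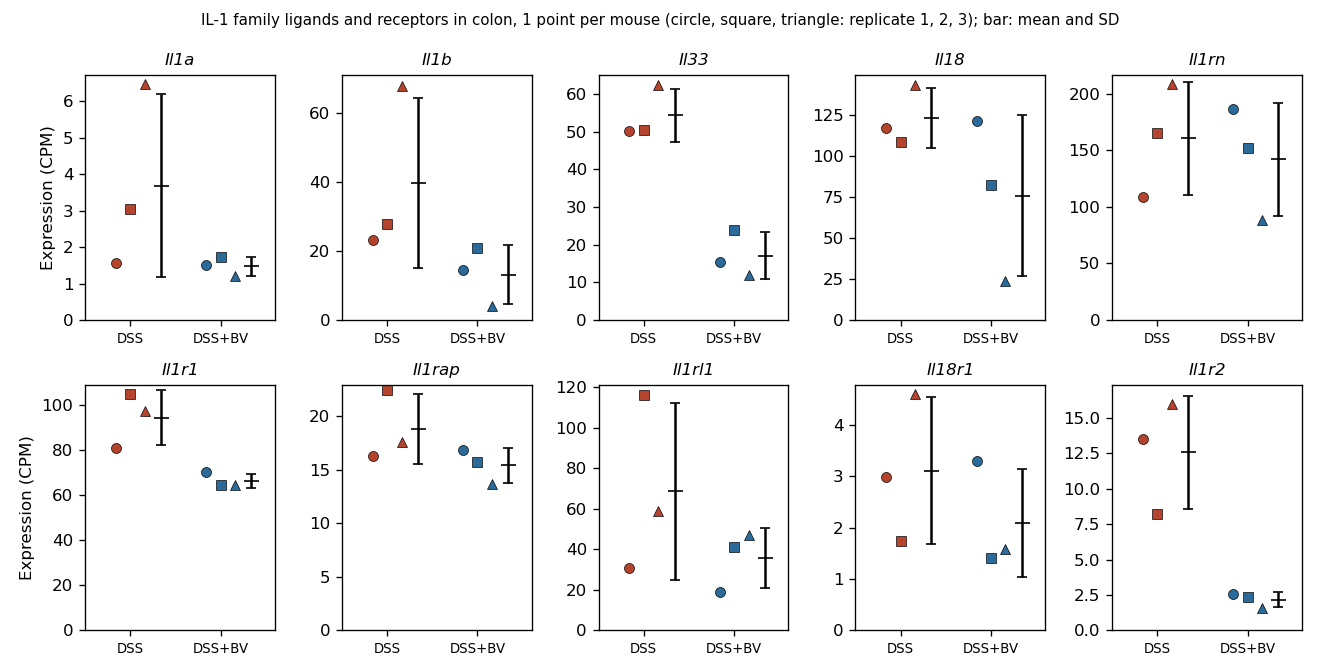
Expression in CPM (vertical axes, each from 0) of the 10 members in the 3 DSS and 3 DSS+BV libraries, 1 point per mouse, with the mean and SD beside them. The groups are apart for Il1b, Il33, Il1r1 and Il1r2 and overlap in the other 6 panels.

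IL-1 beta, the main secreted IL-1 agonist, was at 23.2, 27.9 and 67.9 CPM in DSS 1, 2 and 3. In DSS+BV 1, 2 and 3 it was at 14.4, 21.0 and 4.05 CPM. The groups did not overlap, but DSS 1 and DSS+BV 2 were close, and DSS 3 stood well above the other DSS mice. The means were 39.7 ± 24.6 and 13.2 ± 8.53 CPM (SD, n = 3 each). This was a log2 difference of -1.59 (standard error 0.655, edgeR adjusted p = 0.396, DESeq2 adjusted p = 0.178). Without DSS 3 it was -0.96, and without DSS+BV 2 it was -2.10. Without DSS+BV 3, the lowest library, it was -1.16.

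Il1a, which encodes the IL-1 released by damaged epithelial and other cells, was scarce. It was at 1.56, 3.05 and 6.46 CPM in the DSS mice and 1.52, 1.72 and 1.201 CPM in the DSS+BV mice, resting on 19 to 111 expected counts a library. DSS 1 lay within the DSS+BV range and DSS 3 stood apart above. The log2 fold change was -1.31 (standard error 0.545, edgeR adjusted p = 0.398), and -0.63 without DSS 3.

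The antagonist Il1rn was abundant in every mouse and gave no direction. It was at 108.7, 164.9 and 208.1 CPM in the DSS mice and at 186.4, 151.5 and 88.3 CPM in the DSS+BV mice. The range of either group covered most of the other. The log2 fold change was -0.18 (standard error 0.336, edgeR adjusted p = 0.853), and its sign turned when DSS 3 (0.054) or DSS+BV 3 (0.078) was left out, while it was -0.41 without DSS+BV 1.

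Within a library, the antagonist was therefore set against its competitors. The ratio of Il1rn to the sum of Il1a and Il1b was 4.38, 5.33 and 2.80 in the DSS mice and 11.7, 6.67 and 16.7 in the DSS+BV mice. Every DSS+BV mouse had a higher ratio than every DSS mouse. The mean log2 ratio was 2.01 ± 0.477 and 3.45 ± 0.668 (SD, n = 3 each), a difference of 1.44 or 2.71-fold. The exact two-sided permutation test gave p = 0.1 (0.2 after Benjamini-Hochberg adjustment over 4 ratios), the smallest that 3 against 3 mice allow. With 1 library left out, the difference stayed between 1.13 and 1.79.

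**Figure D2:**
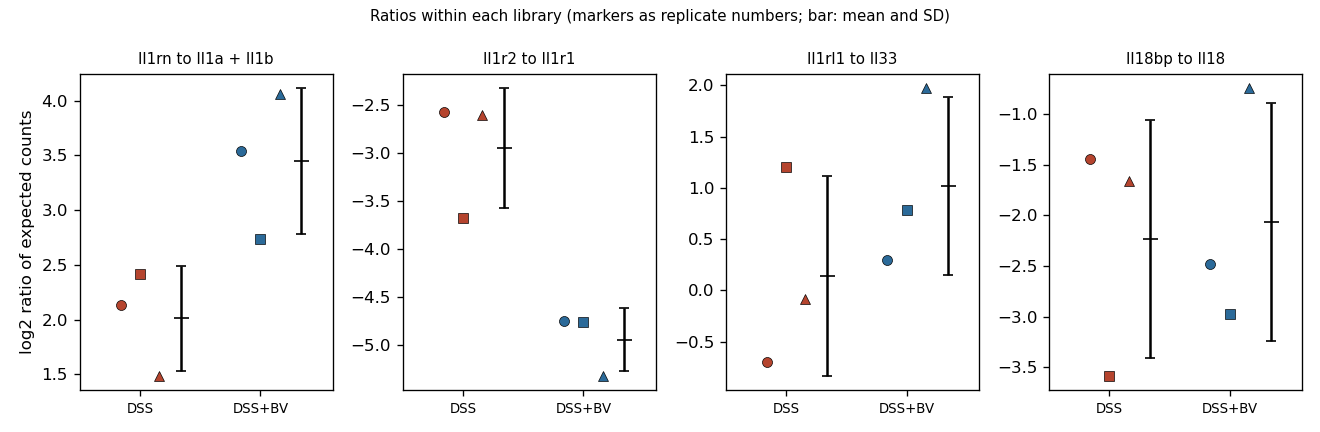
Log2 ratio of expected counts within each library (vertical axes) for 4 pairs, 1 point per mouse, with mean and SD. The groups are apart for the antagonist against IL-1 (higher in DSS+BV) and for the decoy against Il1r1 (lower in DSS+BV), and they overlap for the other 2 ratios.

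Among the members, Il1r2 had the fold change of greatest size. The decoy receptor was at 13.5, 8.21 and 16.01 CPM in the DSS mice and at 2.57, 2.36 and 1.58 CPM in the DSS+BV mice. The lowest DSS mouse had over 3 times the level of the highest DSS+BV mouse. The means were 12.6 ± 3.99 and 2.17 ± 0.522 CPM (SD, n = 3 each), a fitted 5.79-fold lower level in the DSS+BV group. The log2 fold change of -2.53 (standard error 0.350) did not pass with edgeR (adjusted p = 0.0865) and passed with DESeq2 (adjusted p = 4.08e-08). Leaving out 1 library moved it only between -2.75 and -2.32. Any link of this difference to the split in B cell genes, or to the missing Hoxb13 in DSS+BV 3, was not tested.

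Il1r1, the signalling counterpart of the decoy, differed by less. It was at 80.8, 104.9 and 97.2 CPM in the DSS mice and at 70.0, 64.5 and 64.4 CPM in the DSS+BV mice. The groups did not overlap, and the DSS+BV mice were within 6 CPM of each other. Its fitted log2 fold change was -0.51 (standard error 0.138, edgeR adjusted p = 0.300, DESeq2 adjusted p = 0.109), between -0.61 and -0.41 with 1 library left out.

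The ratio of Il1r2 to Il1r1 was 0.168, 0.0785 and 0.165 in the DSS mice and 0.0372, 0.0370 and 0.0250 in the DSS+BV mice. Decoy transcripts were thus scarcer relative to the signalling receptor in every DSS+BV mouse. The difference in log2 ratio was -1.99, or 3.98-fold lower (exact two-sided permutation p = 0.1, the smallest possible, 0.2 after adjustment over the 4 ratios). Il1rap, the chain shared by the IL-1 and IL-33 receptors, was at 16.3, 22.4 and 17.6 CPM in the DSS mice and 16.8, 15.7 and 13.7 CPM in the DSS+BV mice. Its groups overlapped, and the fitted log2 difference was -0.29 (standard error 0.194, edgeR adjusted p = 0.573, -0.13 without DSS 2).

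IL-33, an alarmin stored in the nucleus and released on damage, was at 50.1, 50.4 and 62.5 CPM in the DSS mice. In the DSS+BV mice it was at 15.5, 23.9 and 11.9 CPM. The DSS mice were close together, and each had over 2 times the level of any DSS+BV mouse. The means were 54.3 ± 7.07 and 17.1 ± 6.13 CPM (SD, n = 3 each), a fitted 3.17-fold lower level in the DSS+BV group. The log2 fold change of -1.67 (standard error 0.273) did not pass with edgeR (adjusted p = 0.144) and passed with DESeq2 (adjusted p = 2.52e-05). It lay between -1.98 and -1.46 with 1 library left out, the latter without DSS+BV 3. Any link to the split in B cell genes, or to the missing Hoxb13 in DSS+BV 3, was not tested.

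Its receptor gene Il1rl1 varied widely within a group. It was at 30.8, 116.2 and 58.8 CPM in the DSS mice and at 19.0, 41.2 and 47.0 CPM in the DSS+BV mice. DSS 2 was highest by far and the remaining mice overlapped. With edgeR the log2 difference was -0.94 (standard error 0.532, edgeR adjusted p = 0.510), and -0.32 without DSS 2. The ratio of Il1rl1 to Il33 was 0.614, 2.31 and 0.941 in the DSS mice and 1.23, 1.72 and 3.93 in the DSS+BV mice (exact two-sided permutation p = 0.4, 0.533 adjusted).

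IL-18, the epithelial member, was at 117.1, 108.4 and 143.5 CPM in the DSS mice and 121.6, 82.2 and 23.8 CPM in the DSS+BV mice. DSS+BV 1 lay inside the DSS range. DSS+BV 3, the library without Hoxb13 and lowest in summed distal colon genes, was far below all others. Fitted over all 6 mice, the log2 difference was -0.70 (standard error 0.522, edgeR adjusted p = 0.614), and it ran from -1.20 without DSS+BV 1 to -0.27 without DSS+BV 3. The receptor gene Il18r1, carried mainly by lymphocytes, was at 2.99, 1.74 and 4.60 CPM in the DSS mice and 3.30, 1.40 and 1.58 CPM in the DSS+BV mice. Those groups overlapped (log2 fold change -0.57, standard error 0.501, edgeR adjusted p = 0.663), and the value ran from -1.05 without DSS+BV 1 to -0.18 without DSS 3.

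The binding protein Il18bp, which neutralises IL-18, was set against its ligand in the same way. The ratio of Il18bp to Il18 was 0.367, 0.0834 and 0.315 in the DSS mice and 0.179, 0.127 and 0.597 in the DSS+BV mice. The groups overlapped in part, with DSS 2 lowest and DSS+BV 3 highest (difference in log2 ratio 0.17, exact two-sided permutation p = 1).

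**Figure D3:**
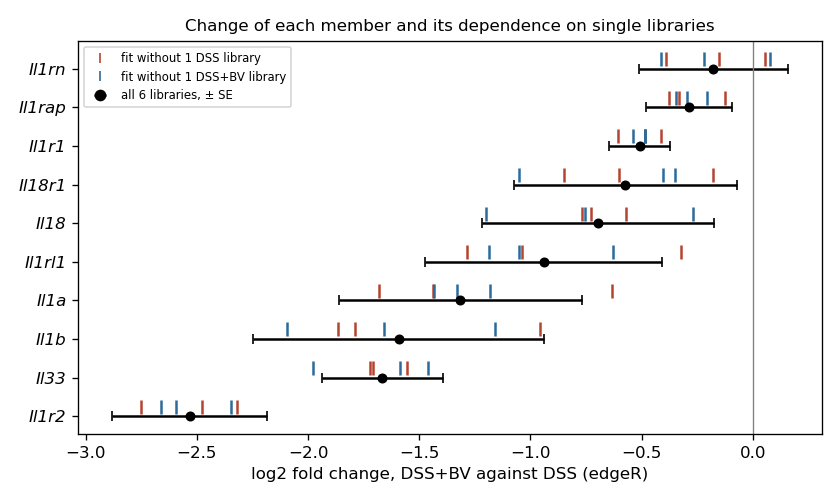
Fitted log2 fold change (horizontal axis, DSS+BV against DSS, edgeR) of the 10 members, with the standard error as the bar and a tick for each fit with 1 library left out. All ticks stay below 0 for 9 members, and 2 ticks of Il1rn lie above 0.

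Levels of different genes were compared per kilobase of the principal transcript. In the DSS group, Il18 was highest at 143.1 CPM per kb and Il1rn next at 64.9, with no overlap between mice. Il1b followed at 29.3 and Il33 at 21.4, and the mice of Il1rn and Il1b, and of Il1b and Il33, overlapped. Receptor genes came lower in mean, with Il1r1 at 16.2, Il1rl1 at 12.9 and Il1r2 at 8.87, and neighbours among these 3 overlapped. The highest Il1rl1 mouse (21.9) lay above the lowest mouse of Il33 (19.7) and of Il1b (17.1). The highest Il1r1 mouse (18.0) lay above the lowest Il1b mouse. Il1rap at 4.15 was apart from its neighbours, while Il1a at 1.87 and Il18r1 at 0.748 CPM per kb overlapped. In the DSS+BV group Il1r1 (11.4) stood above Il1b (9.70) in mean with overlapping mice, Il33 was level with Il1rl1 (6.73 and 6.74), and Il1r2 (1.53) was below Il1rap (3.40 CPM per kb), without overlap between those 2. The antagonist thus exceeded either IL-1 agonist in mean level per length in each group.

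Of 11 further family genes listed, 9 were in the table and 5 were tested, of which 4 had a log2 fold change below 0. With edgeR 0 were called, and with DESeq2 1 was called lower (background 1.73%). This was Il1f9, which encodes the epithelial cytokine IL-36 gamma. It had 31, 18 and 34 expected counts in the DSS mice and 5, 2 and 6 in the DSS+BV mice, so its fold rests on very few reads (log2 fold change -2.54, edgeR adjusted p = 0.194, DESeq2 adjusted p = 0.0154). Il18rap, the second chain of the IL-18 receptor, had groups that did not overlap (7.10 ± 1.76 and 4.48 ± 0.374 CPM, SD, n = 3 each, edgeR adjusted p = 0.388). Il1rl2, the IL-36 receptor gene between Il1r1 and Il1rl1 on chromosome 1, and Sigirr, an inhibitory receptor, had log2 fold changes of -0.14 and 0.13.

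Genes that process or release the ligands had a median log2 fold change of 0.30 over 11 tested, with 3 below 0, 8 above and 0 called. Casp4, the caspase that senses bacterial lipopolysaccharide, had groups apart (48.0 ± 17.4 and 26.0 ± 3.69 CPM, log2 fold change -0.89, edgeR adjusted p = 0.329). Casp1, which cleaves IL-1 beta and IL-18, was at 0.34 on the log2 scale, and the epithelial sensor Nlrp6 at 0.74 (edgeR adjusted p = 0.396). The 21 adaptors, kinases and brakes of receptor signalling were split into 11 below 0 and 10 above, with a median of -0.07 and 0 called. The kinase gene Map3k8 (-1.22) and Zc3h12a (-0.63), a brake that degrades cytokine transcripts, were lower at an unadjusted p under 0.05 (background 9.12%). Chuk (0.34) was higher at that threshold (background 3.4%).

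Genes known to be induced by IL-1 lay lower as a list, with 19 of 19 tested below 0 (7501 of 14579 over all tested genes). Their median log2 fold change was -2.39, against -0.01 over all tested genes. Only Mmp13, a collagenase, was called with edgeR (background 0.0892% in the lower direction). It was at 69.8, 130.2 and 129.6 CPM in the DSS mice and 8.90, 8.66 and 13.7 CPM in the DSS+BV mice (log2 fold change -3.40, edgeR adjusted p = 0.0293). This call was lost with any 1 library left out (adjusted p from 0.063 to 0.276) and with the replicate number as a block (0.149). At an unadjusted p under 0.05, 13 of the 19 were lower (background 9.12%), and between 11 and 14 with 1 library left out (background 4.09% to 11%). DESeq2 called 12 lower (background 1.73%). These included the neutrophil growth factor Csf3 (-4.17, edgeR adjusted p = 0.0828), the neutrophil chemokine gene Cxcl5 (-4.01, 0.186), the acute phase gene Saa3 (-3.71, 0.135), Nos2 (-3.73, 0.220), the matrix protease Mmp3 (-3.29, 0.0833) and Ccl2, a monocyte attractant (-2.39, 0.123). Csf3 had 43, 64 and 94 expected counts in the DSS mice and 5, 3 and 2 in the DSS+BV mice. Its fold thus rests on very few reads. The whole list was chosen with earlier results of these data known, so these shares are not a test against the background. Several genes of the list are also induced by TNF or IL-17, and the study drew Il6, Cxcl1 and Cxcl2 from these samples. The list is therefore not independent evidence of IL-1 activity. Of 10 genes tied to IL-18 or IL-33, only 3 were tested: Areg, a tissue repair factor (0.67), Arg1 (0.50) and Gzmb (-0.15). The type 2 cytokine genes Il4, Il5 and Il13, named after their values were seen, had 2 counts or fewer in every library, under the 3 counts (up to 0.198 CPM) that a count of 0 allows.

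**Figure D4:**
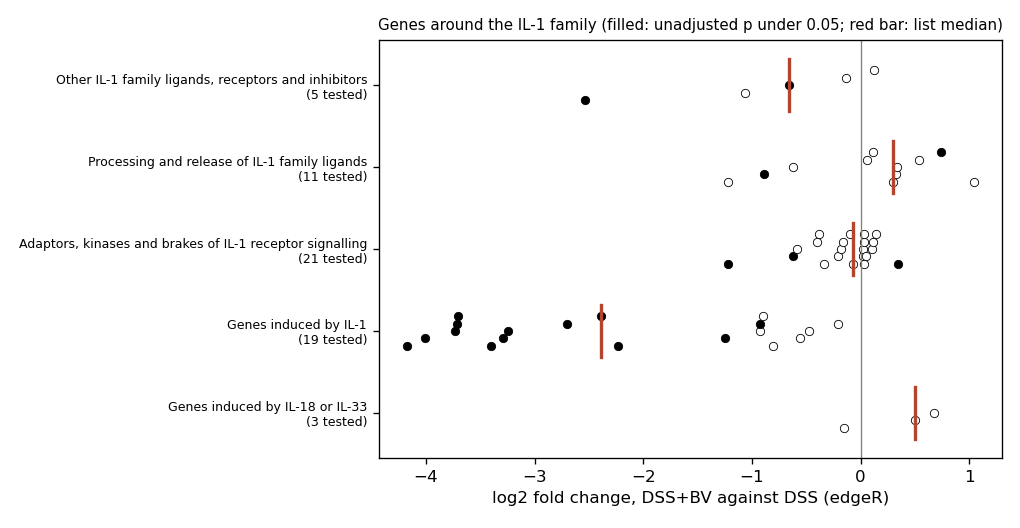
Fitted log2 fold change (horizontal axis, DSS+BV against DSS, edgeR) of each tested gene in 5 lists around the family, filled where the unadjusted p is under 0.05, with the list median as a red bar. The IL-1-induced list has its median at -2.39, while signalling adaptors lie around 0 (-0.07).

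Marker genes of cells that can carry the members were summed per library, to stand beside them. Their lists too were chosen with earlier results of these data known. Summed neutrophil markers lay between 140.8 and 207.4 CPM in the DSS mice and between 13.1 and 25.9 CPM in the DSS+BV mice. Of these markers, 9 of 9 tested were below 0 (7501 of 14579 over all tested genes). With edgeR 6 were called lower (background 0.0892%). With 1 library left out, 3 neutrophil markers were called without DSS+BV 1, 1 without DSS 2 and 0 without any of the others, and 0 with the replicate number as a block. Neutrophils are known to express Il1b and Il1r2, and the neutrophil sum was 9.70-fold lower where Il1r2 was 5.79-fold and Il1b 3.02-fold lower. Macrophage and monocyte markers overlapped (506.6 to 1101 and 292.7 to 681.4 CPM, 11 of 11 below 0, 0 called). Summed fibroblast markers, relevant to Il33 and Il1r1, were apart (1629 to 2165 and 829.8 to 1215 CPM, 8 of 8 below 0, 0 called). This was a 1.91-fold lower sum against 3.17-fold for Il33 and 1.42-fold for Il1r1. Single fibroblast markers ran from 1.42-fold (Pdgfra) to 2.49-fold (Col1a1) lower, and 3 of the 8 had groups without overlap (background 11.3%). Summed endothelial markers were apart too (335.7 to 432.8 and 226.6 to 301.9 CPM, 7 of 7 below 0, 0 called). Epithelial markers, the source of Il18, lay higher in the DSS+BV mice (15412 to 25529 and 26928 to 44829 CPM, 12 of 12 above 0, 0 called), while Il18 was not. Of the 12, 5 had groups without overlap (background 6.37%). Muc2 ran from 2339 to 10171 CPM in the DSS mice and from 6878 to 20700 CPM in the DSS+BV mice. Car1 ran from 825 to 1041 and from 924 to 10453 CPM. Epcam, whose groups overlapped, and Cdh1 differed by less (log2 fold changes 0.21 and 0.18). T cell markers overlapped (30.5 to 59.8 and 29.9 to 66.0 CPM), as did those of group 2 innate lymphoid and mast cells, which carry ST2 (39.8 to 125.7 and 67.3 to 103.2 CPM). In both sets of mice the latter sum was mostly Kit. The part of cell numbers in the members' differences was not tested.

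The genes whose log2 CPM followed a member most closely over the 6 libraries are given as a description, since all share the same tissue and scaling. For Il1b these were Ism1 (Pearson r = 0.993), Matn2 (0.992) and Asb3 (0.991). Those nearest Il33 were Efcab7 (r = 0.996), Aptx (0.994) and Togaram2 (0.993). Zfp94, Med12l and Insyn1 were nearest Il18 (r = 0.991 each), with Med12l at 0.759 CPM in DSS+BV 3 against 3.31 CPM or more in the other libraries.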

How the data were processed

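Colon RNA from 3 DSS and 3 DSS+BV mice was sequenced, and the authors deposited expected counts per gene, not scaled between libraries. The submitters' processing notes name HISAT2 2.1.0, Bowtie2 2.2.5, RSEM 1.2.8 and GRCm38.p6. RSEM divides reads that match several transcripts, and 1573 genes held a value that was not whole, so expected counts were rounded. Genes were kept with filterByExpr (minimum count 10, minimum total 15) and scaled with TMM factors. The comparison used edgeR 4.0.16 (R 4.3.3) with its quasi-likelihood F-test, and p-values were adjusted by Benjamini-Hochberg across the whole table. The biological coefficient of variation was 32.1%. Replicates differed by more than sampling noise (chi-square per degree of freedom 42.7 or more). Ratios had 0.5 added to each count and were tested by exact permutation. As alternatives, each library was left out in turn, and DESeq2 1.42.0, other scaling factors (RLE, upper quartile), other low-count filters, robust fitting and a replicate block were tried. The scripts were first tested on simulated data. Positions and promoters came from RefSeq and transcript lengths from GENCODE M21, both GRCm38.p6. All members are given, with genes of the lists that were called, were at an unadjusted p under 0.05 or were most abundant, and the 3 genes most like Il1b, Il33 and Il18. Nlrc4, Epcam and Cdh1 were added after their values were seen. The members and lists were chosen with earlier results of these data known, and 156 of 161 list entries were in the table. Figures were drawn with matplotlib 3.10.9.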

Additional observations from a re-analysis of the deposited data

How the results depend on the processing

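With 3 mice per group, the choice of test moved the calls most. DESeq2 called 280 genes lower and 45 higher over the whole table and 2 members lower, where edgeR called 13, 0 and 0. RLE or upper-quartile factors, no filter or a stricter one, robust fitting and a call on adjusted p only left every member on its side of the threshold and in its direction. With 1 library left out, edgeR called 0 to 3 genes lower and 0 to 4 higher (most without DSS+BV 1), and 3 to 6 members had an unadjusted p under 0.05 in the lower direction, a count added after the data were seen (6 without DSS 1, 4 without DSS+BV 2, 3 without any of the others). Il1rn then ran from -0.41 to 0.078 in log2 fold change, and the log2 ratio of Il18bp to Il18 from -0.51 to 0.62. With the replicate number as a block (replicate block), edgeR called 0 genes lower, and Il1r2 was at -2.50 (adjusted p = 0.256) and Il33 at -1.71 (adjusted p = 0.267). Same-numbered mice had correlations of 0.267, 0.255 and -0.30 in their deviations from the group means. Differently numbered mice had values between -0.572 and 0.484. Deviations within a group depend on each other, so these values cannot decide whether the numbers pair the mice. Among the members, counts were lowest for Il1a (19 to 111 a library) and Il18r1 (22 to 79). Other named genes with few counts included Il1f9 (2 to 34) and Csf3 (2 to 94).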
